A study of Mus musculus with 8 samples.

Results

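The nuclear genes of the oxidative phosphorylation machinery were followed across 8 mouse ascending aortas profiled on Illumina arrays, with each mouse on an array of its own. The members are the genes whose platform symbol names a subunit of NADH dehydrogenase (Ndufa, Ndufb, Ndufc, Ndufs, Ndufv), succinate dehydrogenase (Sdha to Sdhd), the cytochrome bc1 complex (Uqcr genes and Cyc1), cytochrome c oxidase (Cox4 to Cox8) or ATP synthase (Atp5), without the muscle and brown fat isoforms Cox6a2, Cox7a1 and Cox8b. The pattern found 81 genes on 102 probes, out of 16110 named genes on 23141 named probes. It also took in 5 complex I assembly factors of the Ndufaf series, which are described on their own, and Ndufs5-ps, which RefSeq annotates as a transcribed pseudogene. By complex, 33 members belong to complex I, 3 to complex II, 9 to complex III, 15 to complex IV (Ndufa4 counted there) and 16 to complex V.

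The normal group held 3 C57BL/6 mice whose aorta was not dilated, aged 5.8, 6.4 and 7 months. Mucopolysaccharidosis VII (MPS VII), a lysosomal storage disease, results from loss of beta-glucuronidase, the product of Gusb. The MPS VII mice, also C57BL/6, were split by the labels into 3 with a dilated aorta (7.8, 9.1 and 6 months) and 2 whose aorta was not dilated (5.8 and 6.7 months). Each group held both sexes: normal mouse 2, dilated mouse 3 and not dilated mouse 2 were male and the others female. The genotype is labelled as normal or MPS VII with no allele named. The labels say nothing of slide, scan or extraction batch, so no batch could be examined. Each title names 1 animal, so the replicates are mice, and with 3, 3 and 2 of them the number of arrays limits the precision. Below, a difference with dilatation is that of dilated MPS VII minus normal aorta. A difference without dilatation is that of not dilated MPS VII minus normal aorta. Both hold the disease, so neither is an effect of widening. The MPS VII groups are compared with each other separately.

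Oxidative phosphorylation moves electrons from NADH (complex I) or succinate (complex II) through ubiquinone to complex III, from there by cytochrome c to oxygen at complex IV, and uses the proton gradient so built to make ATP at complex V. All complexes except complex II also hold subunits encoded in mitochondrial DNA, which the symbols used here do not cover. Contractile smooth muscle of the aortic media makes much of its ATP by glycolysis, whereas brown adipocytes, which occur in the fat around the thoracic aorta, are packed with mitochondria. In tissue RNA, a change in the number of cells of one type and a change in RNA per cell cannot be told apart.

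The genotype labels held in the array data, while the split by dilatation has no such check here. The tested Gusb probe read 1094, 992 and 1172 in the normal aortas, 190.1, 218 and 184 in the dilated ones and 112 and 125 in MPS VII aortas without dilatation. All 5 MPS VII mice thus lay below all 3 normal mice. A much dimmer Gusb probe read 45.8, 35.0 and 43.8, then 31.6, 39.6 and 40.8, then 32.7 and 27.2, with dilated and normal mice overlapping. Another was not well above background. All 9 smooth muscle markers were measured above background, as the labelled tissue implies. Between 45.0% and 45.2% of the probes lay above background on each array, the array medians ran from 17.75 to 17.99 intensity units. All arrays share 1 distribution of values, so these figures cannot show whether an array stands apart, and a change in total RNA cannot be seen. The intensities are the deposited linear values, and log2 differences were taken on log2(intensity + 50), which understates the change of dim genes.

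Of the 81 members, 75 could be tested and 72 lay above background on all 8 arrays. A probe counted as above background when its intensity passed 25.6, and a gene was tested when this held on at least 2 arrays. The 6 members not tested, and not well above background, were Ndufb4, Ndufs1 (a core iron-sulphur subunit of complex I), Uqcrfs1 (the Rieske iron-sulphur protein of complex III), Uqcrq, Cox7b2 and Atp5k. Cox7b passed the filter through the 2 aortas of the not dilated group alone, at 29.7 and 31.4 against 14.2 to 25.4 in the other 6 mice. Ndufab1 passed on 4 arrays and Ndufb11 on 6. Sdha is not analysed here.

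The promoters of Sdhb and Cox8a are shown because these genes passed the test in both comparisons with normal aorta, and those of Cox6a1 and Atp5h because they passed without dilatation and hold 2 kinds of motif linked to mitochondrial genes. Each is RefSeq's sequence of build GRCm38.p6, 200 bases long and written 5′ to 3′ along the gene, from 180 bases before to 20 bases after the annotated start. Capitals mark matches, on either strand, to the NRF1 motif (GCGC, any 2 bases, then GCGC) and to the ETS motif CCGGAAG bound by GABP. Sdhb lies at chr4:140961091-140961290 on the plus strand, with an ETS match within the transcribed bases, 7 to 13 from the start. Cox8a lies at chr19:7217597-7217796 on the minus strand, with an ETS match across the start. Cox6a1, at chr5:115348939-115349138 on the minus strand, holds 2 NRF1 matches and 1 ETS match before the start, and Atp5h, at chr11:115419900-115420099 on the minus strand, holds 1 of each.
Sdhb: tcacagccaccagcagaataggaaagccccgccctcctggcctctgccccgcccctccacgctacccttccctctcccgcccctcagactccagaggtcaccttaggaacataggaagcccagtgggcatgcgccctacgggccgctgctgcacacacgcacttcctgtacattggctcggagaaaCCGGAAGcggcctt
Cox8a: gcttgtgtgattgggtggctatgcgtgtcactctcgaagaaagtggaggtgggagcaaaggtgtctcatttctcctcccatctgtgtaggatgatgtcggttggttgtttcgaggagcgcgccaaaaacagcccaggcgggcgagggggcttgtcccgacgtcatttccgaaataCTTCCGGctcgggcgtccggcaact
Cox6a1: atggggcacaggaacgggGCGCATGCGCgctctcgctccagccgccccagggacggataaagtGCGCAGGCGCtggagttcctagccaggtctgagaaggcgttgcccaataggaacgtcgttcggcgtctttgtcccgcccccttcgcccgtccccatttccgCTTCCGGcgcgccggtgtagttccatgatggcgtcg
Atp5h: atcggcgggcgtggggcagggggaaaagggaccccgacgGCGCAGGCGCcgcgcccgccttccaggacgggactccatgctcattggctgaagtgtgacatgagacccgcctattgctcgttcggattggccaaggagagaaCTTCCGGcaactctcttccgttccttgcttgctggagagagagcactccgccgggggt

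Promoter sequences of 300 bases, 250 before to 50 after the start, were matched for 67 of the 81 members. The NRF1 motif occurred on either strand in 18 of the 67 (26.9%) against 7.0% of all 27025 genes in the RefSeq table, where a gene with several starts counted if any held it, and CCGGAAG in 16 (23.9%) against 9.93%. The YY1 motif AAGATGGCG occurred in 7 (10.4%) against 1.64%, and the oestrogen-related receptor motif AAGGTCA in 7 (10.4%) against 5.38%. The median GC content was 58.3% in the members and 52.8% in all genes, which bears on the share of GC-rich motifs. The ETS motif ends in the AAG with which the YY1 motif begins, so a base can belong to both, and the 4 motifs were taken from 13 strings searched. The median log2 difference between not dilated MPS VII and normal aorta was 0.45 for the 16 tested members with the NRF1 motif and 0.57 for the 47 without, and 0.59 for the 15 with the ETS motif and 0.54 for the 48 without. Members with and without either motif thus had similar medians, as a description with no test.

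Across the 72 members measured on every array, the median log2 level relative to the mean of the normal arrays was 0.17, -0.20 and 0.047 in normal mice 1, 2 and 3. It was 0.044, 0.14 and 0.36 in dilated mice 1, 2 and 3, and 0.77 and 0.35 in not dilated mice 1 and 2. The not dilated aortas held the highest and the third highest of the 8 medians, and dilated mice 1 and 2 lay within the range of the normal mice. Single mice set much of this order: not dilated mouse 1 had the highest value of all 8 mice for 63 of the 75 tested members, and normal mouse 2 the lowest for 52. The median over all 10040 tested genes stayed between -0.073 and 0.015 on the 8 arrays.

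**Figure D1:**
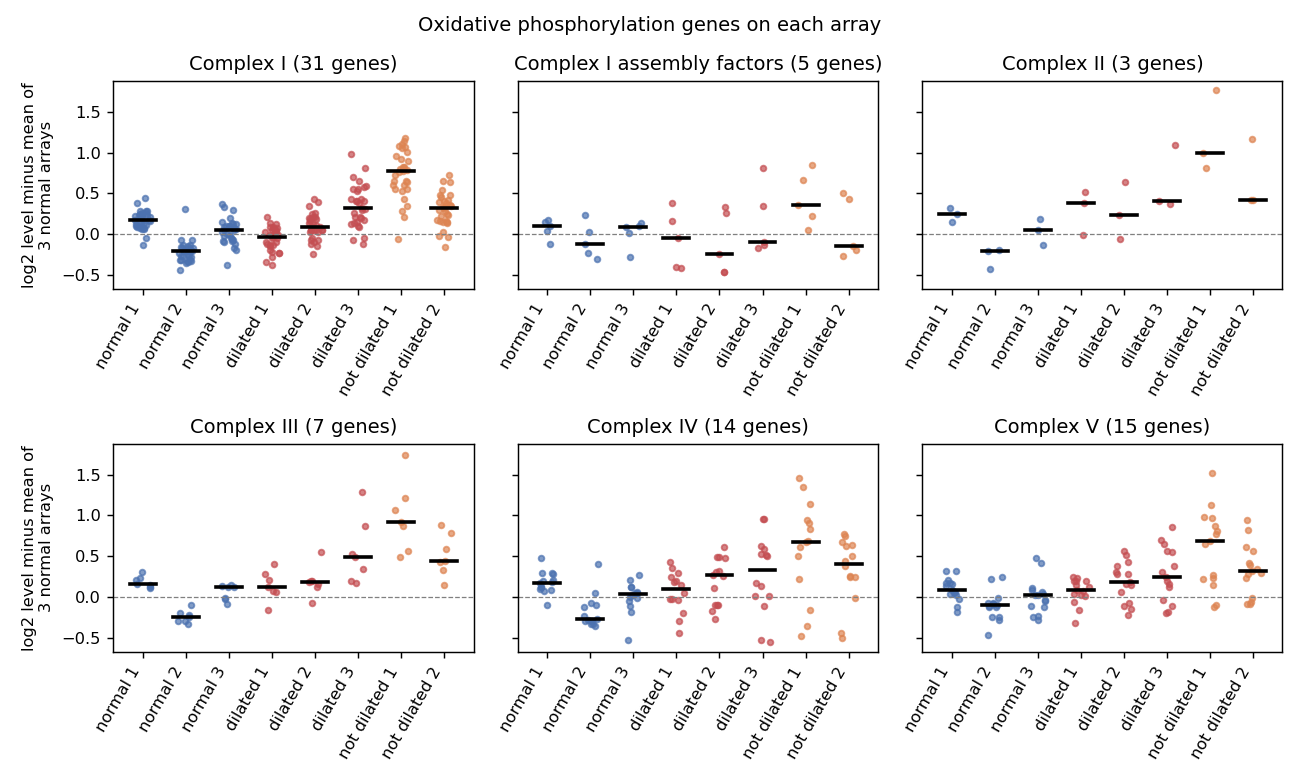
Each point is 1 tested gene on 1 array, as its log2 level minus the mean of the 3 normal arrays (vertical axis, log2 units), in panels for complexes I to V and the complex I assembly factors; black lines are medians over the genes of a panel. Not dilated mouse 1 has the highest median in every panel and normal mouse 2 the lowest in every panel except that of the assembly factors.

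Not dilated MPS VII aorta was set against normal aorta to see the effect of the disease in a vessel that had not widened. Subunits of all 5 complexes rose: 14 of the 75 tested members rose (18.7%) and 0 fell, where 4.84% of all 10040 genes rose and 5.18% fell (limma, Benjamini-Hochberg adjusted p under 0.05 over all genes). The median member difference was 0.57 on the log2 scale, against -0.059 over all genes. Of the 72 members above background on all arrays, 66 lay above 0 and 6 below. All mice of the not dilated group lay above all normal mice for 50 of these 72 (69.4%), where this held for 20.2% of all genes tested. Cox7b, which passed the filter through the not dilated group, is left out of the counts over these 72. It is included in the 75 tested members and in the tested members of complex IV, with their shares and medians. Over the 72 members, 14 rose (19.4%) and the median was 0.57. The members that rose were Sdhb (complex II), Cyc1 and Uqcrb (III), Cox5a, Cox5b, Cox6a1 and Cox8a (IV), Atp5pb, Atp5o, Atp5h and Atp5b (V), and Ndufa9, Ndufs4 and Ndufb3 (I). By complex the median was 0.57 for the 31 tested members of complex I, 0.71 for the 3 of complex II, 0.74 for the 7 of complex III, 0.53 for the 14 of complex IV and 0.50 for the 15 of complex V. The 5 assembly factors had a median of 0.11, with 0 called.

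These calls rested on few mice. Without not dilated mouse 1, which left 1 mouse in that group assumed to vary like the others, 0 members were called and the median was 0.35. Without normal mouse 3 the count was 1, without normal mouse 1 or normal mouse 2 it was 4, and without dilated mouse 2, which enters through the shared estimate of the spread, it was 5. Without dilated mouse 3 it was 24. Cell type markers moved with this comparison too: 4 of 7 tested brown adipocyte markers rose, and with their mean level as a covariate 0 members were called and the median was -0.18. With the white adipocyte marker mean as the covariate, 0 members were called and the median was -0.0098.

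Dilated MPS VII aorta, where disease and widening come together, gave fewer calls against normal aorta. Sdhb and Cox8a rose, 2 of 75 members (2.67%), and 0 fell, where 9.81% of all genes rose and 10.4% fell, so the members' share of calls lay below that of all genes in both directions. The median member difference was 0.19 against -0.054 over all genes, with 56 members above 0 and 19 below. All dilated aortas lay above all normal ones for 11 members (14.7%), against 17.9% of all genes. The medians by complex were 0.13 (I), 0.33 (II), 0.27 (III), 0.26 (IV) and 0.21 (V), and -0.14 for the assembly factors. The 2 calls fell to 0 without any one of normal mice 2 and 3 and dilated mice 2 and 3, and to 1 without normal mouse 1 or not dilated mouse 2. They also fell to 0 with sex or the white adipocyte marker mean as a covariate and rose to 8 with age, and the median turned to -0.36 with the white and -0.17 with the brown adipocyte marker mean.

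**Figure D2:**
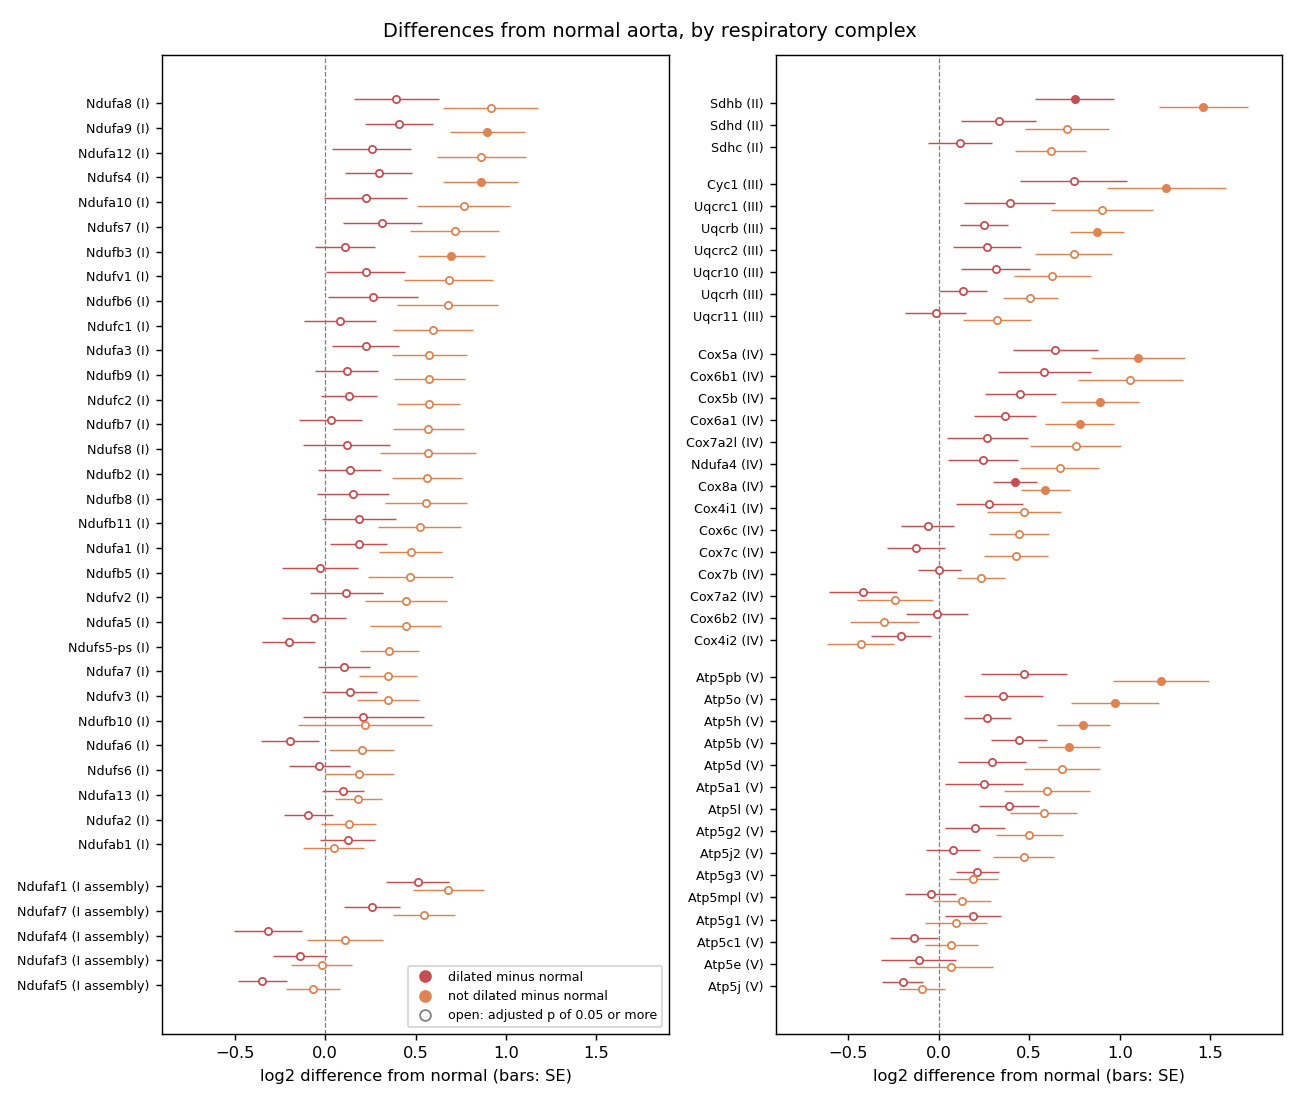
Log2 difference from the 3 normal mice (horizontal axis) with its limma SE, for the 75 tested members ordered by complex; red points are dilated and orange points not dilated MPS VII aorta, filled where the adjusted p was under 0.05. Filled points number 2 for the dilated and 14 for the not dilated group, all of them above 0.

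Between the MPS VII groups, limma called 0 of the 75 members and 0 of all 10040 genes (0.0%), while 21 members had an unadjusted p under 0.05, all of them lower in the dilated group, where this held for 3.49% of all genes. The median member difference, dilated minus not dilated, was -0.40 against 0.0034 over all genes. Of the 72 members above background on all arrays, 4 lay above 0 and 68 below. All dilated mice lay below both not dilated mice for 30 of these 72 (41.7%), against 11.4% of all genes tested. The median was -0.17 without not dilated mouse 1 and -0.61 without not dilated mouse 2, and it was 0.021 with the brown adipocyte marker mean as a covariate. With age as a covariate the median was -0.20, and with sex it was -0.42. The widest of these differences were those of Atp5pb (-0.76, SE 0.27) and Sdhb (-0.71, SE 0.25), each with a limma adjusted p of 0.46.

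With both MPS VII groups averaged against normal aorta, 16 members rose (21.3%) and 0 fell, where 11.1% of all genes rose and 13.3% fell, and the median was 0.35. Atp5l, Cox6b1 and Ndufaf1 were called here and in no other comparison, and Ndufb3 (adjusted p = 0.0785 by limma) was not. All 5 MPS VII mice lay above all 3 normal mice for 11 members (14.7%), against 12.4% of all genes. The count was 7 without normal mouse 2, 5 without normal mouse 3 and 4 without not dilated mouse 1, and 0 with either adipocyte marker mean as a covariate. In all, 17 members were called in at least 1 of the 4 comparisons, and these share their normal mice.

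Succinate dehydrogenase, complex II, oxidises succinate to fumarate and so belongs to both the citric acid cycle and the respiratory chain. Its iron-sulphur subunit Sdhb had intensities of 1132, 782 and 816 in the normal mice, 1306, 1433 and 1965 in the dilated mice and 3164 and 2074 in the not dilated mice. The 3 groups did not overlap, with the not dilated mice highest. Sdhb rose by 0.75 on the log2 scale with dilatation (SE 0.22, limma adjusted p = 0.0411) and by 1.46 (SE 0.25, adjusted p = 0.0136) in the absence of dilatation, the highest difference of any member in both comparisons. A further Sdhb probe ran alongside, at 1129, 674 and 662, then 1050, 1322 and 1786, then 2811 and 1759, and another was not well above background. The well-measured further probe passed without dilatation (1.43, adjusted p = 0.0225 with every probe kept) and not with it (0.73, adjusted p = 0.0852). With the white adipocyte marker mean as a covariate, the Sdhb difference with dilatation was -0.047. The membrane anchor Sdhc read 5754, 4492 and 5387 in normal, 5170, 4980 and 6919 in dilated and 9164 and 6954 in not dilated aorta. Its difference without dilatation was 0.62 (SE 0.20) and did not pass (adjusted p = 0.0748), and the other anchor, Sdhd, stood at 0.71 (SE 0.23, adjusted p = 0.0832).

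In complex III, Cyc1, the cytochrome c1 that hands electrons to cytochrome c, read 2164, 1491 and 1638 in normal mice, 2315, 2583 and 4306 in dilated mice and 5914 and 3031 in not dilated mice. Every MPS VII mouse lay above every normal mouse, and dilated mouse 3 overlapped the not dilated pair. Cyc1 rose by 1.26 without dilatation (limma adjusted p = 0.0449, SE 0.33), and its difference with dilatation, 0.75 (SE 0.30), did not pass (adjusted p = 0.104). Uqcrb, a small subunit next to the ubiquinone site, read 1024, 786 and 1030 in normal, 1096, 1080 and 1209 in dilated and 1760 and 1769 in not dilated aorta. Here both not dilated mice stood at nearly the same level, well above the other 6. It rose by 0.87 without dilatation (SE 0.15, adjusted p = 0.0144). The core proteins Uqcrc1 and Uqcrc2 had differences of 0.90 and 0.74 there without passing (adjusted p = 0.0711 and 0.0553), and the lowest of the complex was the small subunit Uqcr11 at 0.32 (14253, 10390 and 13926 in normal against 17890 and 14121 in not dilated mice).

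**Figure D3:**
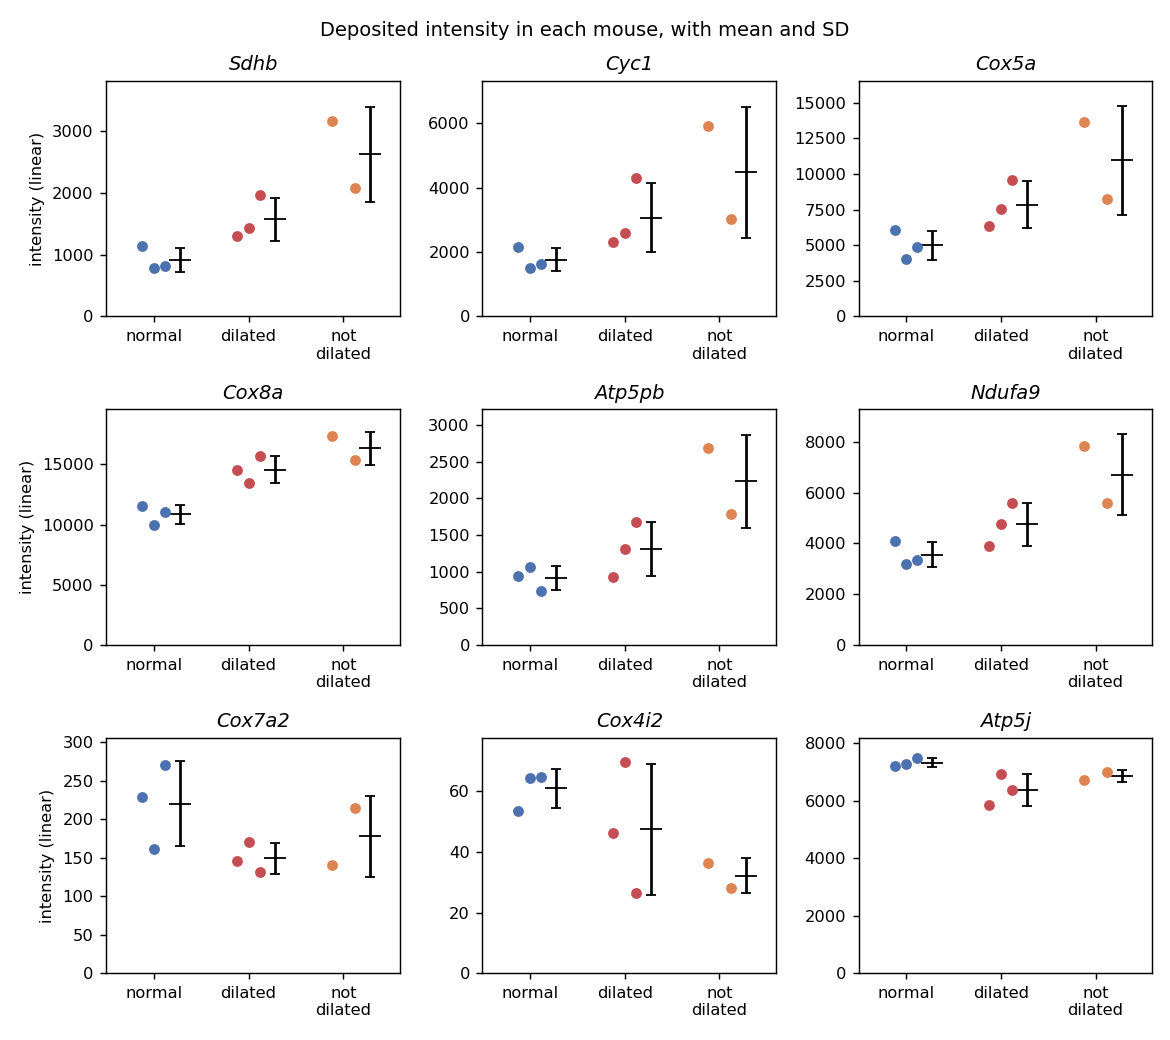
Deposited intensity (vertical axis, linear, from 0) of 9 members in each mouse, by group; black marks are the group mean with its SD (n = 3, 3 and 2). Sdhb, Cyc1, Cox5a, Cox8a, Atp5pb and Ndufa9 are highest in the not dilated group, whereas Cox7a2, Cox4i2 and Atp5j have their highest group mean in normal aorta.

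Complex IV, cytochrome c oxidase, held 4 of the 14 rises without dilatation. Cox5a, a subunit facing the mitochondrial matrix, read 6030, 4040 and 4877 in normal, 6311, 7569 and 9588 in dilated and 13634 and 8257 in not dilated mice. All MPS VII mice lay above the normal ones, and not dilated mouse 1 stood highest. Cox5a rose by 1.10 without dilatation (SE 0.26, limma adjusted p = 0.0346), while its 0.64 with dilatation (SE 0.23) did not pass (adjusted p = 0.0825). Cox5b, which binds zinc on the same side, read 13803, 9164 and 11282, then 13318, 15860 and 17332, then 24906 and 17585. It rose by 0.89 without dilatation (adjusted p = 0.0373), and dilated and normal mice overlapped.

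Cox8a, the broadly expressed form of the smallest subunit, read 11570, 9998 and 11028 in normal, 14570, 13441 and 15664 in dilated and 17332 and 15397 in not dilated mice. The spread within groups was small here, and the MPS VII mice all lay above the normal mice. Cox8a rose by 0.42 in dilated (SE 0.12, limma adjusted p = 0.04) and by 0.59 in not dilated aorta (SE 0.14, adjusted p = 0.0323). Cox6a1, the non-muscle form of subunit VIa, read 11282, 8654 and 8123, then 10620, 11514 and 13996, then 17788 and 14253. It rose by 0.78 without dilatation (adjusted p = 0.0384), and its further probe differed the same way. Cox6b1, which links the 2 monomers of the enzyme, read 15290, 8570 and 10190 in normal, 13563, 15462 and 21469 in dilated and 28080 and 18851 in not dilated mice. Without dilatation its 1.06 (SE 0.29) missed the threshold at an adjusted p of 0.0501, and it rose over both MPS VII groups together by 0.82 (SE 0.23, adjusted p = 0.0334). With every probe kept as its own row, the same probe passed without dilatation at an adjusted p of 0.0477, as did a further Cox6b1 probe at 1.31 (SE 0.31, adjusted p = 0.034).

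Other isoforms of complex IV had differences of either sign, none of them called. Cox4i1, the common form of the regulatory subunit IV, read 19374, 13874 and 17450 in normal, 17332, 20268 and 23904 in dilated and 26860 and 20043 in not dilated mice, a difference of 0.47 without dilatation that did not pass (SE 0.21). Its lung and hypoxia form Cox4i2 read 53.6, 64.3 and 64.7, then 46.3, 69.5 and 26.5, then 36.3 and 28, so both not dilated mice lay below the normal mice. The Cox4i2 difference of -0.43 (SE 0.19, limma adjusted p = 0.15) was the lowest of any member without dilatation, and it did not pass. Cox6b2, known as the testis form, read 106, 58.7 and 98.7, then 105, 76.8 and 75.9, then 71.6 and 50.6, with all groups overlapping normal.

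Cox7a2, the non-muscle form of subunit VIIa, had the lowest difference with dilatation at -0.42 (SE 0.19, limma adjusted p = 0.14), from 229, 161 and 271 in normal to 146, 171 and 132 in dilated mice, with 141 and 215 in not dilated mice. Its relative Cox7a2l, which helps complexes III and IV join into supercomplexes, read 1481, 1818 and 927 in normal, 1515, 1917 and 1532 in dilated and 2466 and 2200 in not dilated mice. Its difference without dilatation was 0.76 (SE 0.25, adjusted p = 0.0835), so the pair pointed in opposite directions and neither passed. None of the Cox members fell in any comparison.

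ATP synthase, complex V, held 4 further rises without dilatation, 3 of them in the peripheral stalk that holds the catalytic head still. Atp5j, also of the stalk and given below, was not called, and its main probe lay below normal. Atp5pb, subunit b of that stalk, read 941, 1062 and 736 in normal, 931, 1309 and 1673 in dilated and 2680 and 1782 in not dilated mice. The dilated mice overlapped the normal ones and the not dilated mice lay above both. Atp5pb rose by 1.23 without dilatation (SE 0.27, limma adjusted p = 0.026). Atp5o, the stalk's cap on the catalytic head, read 238, 168 and 144, then 171, 261 and 323, then 452 and 358, and rose by 0.97 (adjusted p = 0.0399). Atp5h, subunit d of the stalk, read 1762, 1635 and 1813, then 1999, 2152 and 2149, then 3483 and 2680, with no overlap between any of the groups, and rose by 0.80 (SE 0.14, adjusted p = 0.0169).

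Of the catalytic subunits, Atp5b, the beta subunit, read 34327, 28080 and 29608 in normal, 35106, 45221 and 45221 in dilated and 56046 and 45221 in not dilated mice. The repeated value is one that several arrays share, since the deposited arrays have a common distribution. Atp5b rose by 0.72 without dilatation (limma adjusted p = 0.0351, SE 0.17), and all MPS VII mice lay above the normal ones. Atp5a1, the alpha subunit, read 195, 122 and 267, then 228, 212 and 258, then 356 and 268, a difference of 0.60 that did not pass (SE 0.24). Atp5l, subunit g of the membrane part, read 2875, 2506 and 2743, then 3200, 3294 and 4266, then 4791 and 3449. It was called over both MPS VII groups together, where it rose by 0.48 (SE 0.15, adjusted p = 0.0442).

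The 3 genes that encode the same mature subunit c were not called in any comparison. Atp5g1 read 2174, 2828 and 2164 in normal, 2527, 2895 and 2724 in dilated and 2213 and 2904 in not dilated mice. Atp5g2 read 1243, 928 and 833, then 1137, 1104 and 1179, then 1614 and 1241, and Atp5g3 read 13996, 12940 and 13874, then 14850, 17756 and 14850, then 15082 and 15991. Their differences without dilatation were 0.10, 0.50 and 0.19, and none was called. Atp5j, coupling factor 6, is a peripheral stalk subunit too. It read 7190, 7266 and 7492 in normal, 5841, 6934 and 6361 in dilated and 6713 and 7014 in not dilated mice. All MPS VII mice lay below the normal mice there, yet the differences of -0.20 (SE 0.11) and -0.09 (SE 0.13) did not pass, and a further Atp5j probe lay above normal without dilatation.

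Complex I, the largest group of members, had 3 of its 31 tested members called without dilatation, and the differences of all 31 lay above 0, from 0.05 for Ndufab1, the mitochondrial acyl carrier protein (12.1 to 35.6 over the 8 mice and near background), to 0.91 for Ndufa8. Ndufa9, an accessory subunit near the ubiquinone site, read 4116, 3197 and 3356 in normal, 3896, 4777 and 5603 in dilated and 7857 and 5577 in not dilated mice. The dilated mice overlapped both of the other groups. Ndufa9 rose by 0.90 without dilatation (SE 0.21, limma adjusted p = 0.0324). Ndufs4, an accessory subunit of the NADH-binding arm whose loss in mice gives a Leigh-like disease, read 3761, 2675 and 2905, then 3266, 3678 and 4542, then 6532 and 4849, and rose by 0.86 (adjusted p = 0.0366). The call rests on this probe: 3 further Ndufs4 probes had differences of 0.50, 0.29 and 0.50 without dilatation that did not pass (adjusted p = 0.141, 0.503 and 0.0896), and 2 of them lay below 0 with dilatation. Ndufb3, of the membrane arm, read 2724, 2301 and 2272, then 2191, 2810 and 2904, then 4624 and 3393, and rose by 0.70 (adjusted p = 0.0467).

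Ndufa8 had the highest difference of complex I without dilatation and did not pass, at 0.91 (SE 0.26, limma adjusted p = 0.0578), from 4151, 2767 and 2778 in normal to 6899 and 5262 in not dilated mice, with 3231, 4036 and 5614 in dilated mice. A further Ndufa8 probe read 988, 697 and 506, then 795, 1119 and 1472, then 2326 and 1766, and with every probe kept as its own row it did pass, at 1.46 (SE 0.30, adjusted p = 0.0213). The core subunits Ndufv1, which takes the electrons from NADH, and Ndufs7, the last iron-sulphur subunit before ubiquinone, lay above all normal mice in both not dilated mice. Ndufv1 read 11076, 7904 and 10823, then 9539, 10774 and 14729, then 19166 and 13004, with a difference of 0.68 (SE 0.24). Ndufs7 read 5614, 4054 and 4500, then 5109, 5083 and 7657, then 9491 and 6268, with a difference of 0.72 (SE 0.25). Neither passed (adjusted p = 0.1 and 0.0916). With dilatation 25 of the 31 lay above 0, from -0.20 for the pseudogene Ndufs5-ps (3028, 2372 and 2634 in normal, 2260, 2238 and 2441 in dilated and 3930 and 2979 in not dilated mice) to 0.41 for Ndufa9, and 0 were called.

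The complex I assembly factors, which help build the enzyme and are not part of it, had differences of either sign. Ndufaf1 read 517, 387 and 495 in normal, 620, 598 and 851 in dilated and 875 and 681 in not dilated mice, with all MPS VII mice above the normal ones. It rose over both MPS VII groups together by 0.60 (SE 0.16, limma adjusted p = 0.0265). Ndufaf5 read 374, 315 and 347, then 246, 237 and 301, then 360 and 296, so the dilated mice lay below the normal mice. Its difference of -0.35 with dilatation (SE 0.13) did not pass (adjusted p = 0.0967). Ndufaf7 lay above 0 in both comparisons with normal, Ndufaf3 lay below 0 in both, and Ndufaf4 lay below with dilatation and above without.

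For the 11 tested members with 14 further probes above background, the sign matched that of the main probe in 12 of 14 cases with dilatation and in 12 of 14 without. Without dilatation the exceptions were 1 further probe each of Atp5j and Ndufa5. The isoforms left out of the member list were also measured. Cox7a1, the muscle and brown fat form of subunit VIIa, read 9662, 3381 and 7514 in normal, 5293, 5656 and 10224 in dilated and 16692 and 10774 in not dilated mice. Cox8b, the counterpart of Cox8a in the same tissues, read 19770, 9662 and 18032, then 14253, 17032 and 24906, then 35842 and 23378. Both not dilated mice were above all normal mice for each, without passing (differences of 1.09, SE 0.44, and 0.94, SE 0.35). Cox6a2 lay above background in the 2 not dilated mice alone, at 41.9 and 53.8, against 2.04 to 24.3 in the other 6 mice, and is given with no test because it passed the filter through that group.

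Genes that feed electrons to the chain, and a mixed list of related genes, were counted in the same way. Of all genes, 4.84% rose without dilatation and 9.81% with it. Of 14 tested citric acid cycle and pyruvate dehydrogenase genes, 6 rose and 0 fell without dilatation (median 0.88), and 3 rose with it (median 0.24). Pdhb, a pyruvate dehydrogenase subunit, read 148, 156 and 86.5 in normal, 369, 393 and 448 in dilated and 824 and 529 in not dilated mice, 3 groups without overlap. Pdhb rose by 1.35 with dilatation (SE 0.20, limma adjusted p = 0.00347) and by 2.00 without (SE 0.23, adjusted p = 0.00417), and Cs, citrate synthase, by 0.95 and 1.52. Of 12 fatty acid oxidation genes, all 12 lay above 0 in both comparisons, 5 rose without dilatation (median 1.11) and 0 with it (median 0.63). Acaa2, the last enzyme of the beta oxidation cycle, rose by 1.57 without dilatation (adjusted p = 0.0224). Among 17 genes of a mixed list (cytochrome c, Slc25a, Vdac, Etf and Coq genes, Atpif1 and Ckmt1), 6 rose without dilatation and 5 with it. They included Etfdh, which passes electrons from fatty acid oxidation to ubiquinone and rose by 1.74 and 1.03, and the phosphate carrier Slc25a3, which rose by 0.88 and 0.71. Coq3, counted among the 5 with dilatation, lay above background in the 5 MPS VII mice alone and so passed the filter through them.

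Counts in other mitochondrial lists and in glycolysis are read against the same 4.84% of all genes risen without dilatation and 9.81% with it. Of 67 mitochondrial ribosomal protein genes, 4 rose without dilatation (median 0.20), near that share, and 0 with it (median -0.041). Of 23 assembly factors of complexes II to V, 4 rose without dilatation, among them the copper chaperone Cox17 by 0.87 and the ATP synthase factor Atpaf2 by 1.05, and 1 rose with it, Sdhaf1 by 0.60. Of 5 further complex I factors, 0 were called without dilatation and 1 with it (Timmdc1, 0.49). Protein import gave 1 rise of 16 without dilatation (Timm10) and 2 falls with it (Tomm22 and Hspe1). Among 13 regulators of mitochondrial biogenesis, Ppargc1b, a coactivator of oestrogen-related receptors, read 438, 223 and 442 in normal, 526, 520 and 516 in dilated and 1075 and 1002 in not dilated mice. It rose by 1.43 without dilatation (limma adjusted p = 0.0135, SE 0.24), and 0 of the 13 were called with dilatation. Of 13 glycolysis genes, 2 rose without dilatation and 4 with it, with medians of 0.26 and 0.21.

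Cell type markers differed between the same mice. Counts here and for the further cell types below are read against 4.84% of all genes risen and 5.18% fallen without dilatation. With dilatation these shares were 9.81% and 10.4%. Of 9 brown adipocyte markers, 7 could be tested, Dio2 was not well above background and Otop1 is not analysed here. Elovl3, among the 7 and in their mean, lay above background only in dilated mice 1 and 3 and not dilated mouse 1. It thus passed the filter through MPS VII mice alone. Ucp1, the uncoupling protein that lets brown fat make heat, read 3155, 1251 and 1616 in normal, 3028, 3441 and 3335 in dilated and 10159 and 6514 in not dilated mice. It rose by 2.10 without dilatation (SE 0.34, limma adjusted p = 0.0128), as did Cidea by 1.68, Fabp3 by 1.83 and Slc27a2 by 2.62, and Slc27a2 alone of the 7 rose with dilatation (1.63). The summed brown marker level ran from 7491 to 14647 in normal, 14953 to 28797 in dilated and 29164 to 48773 in not dilated mice, with no overlap between groups. Ppargc1a and Cpt1b on this list belong to mitochondrial pathways too.

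The white adipocyte sum ran from 13886 to 31635 in normal, 50973 to 76147 in dilated and 48250 to 85140 in not dilated mice, with 6 of 8 markers risen with dilatation and 3 without. The smooth muscle sum ran from 92550 to 117097, then 47123 to 83826, then 66937 to 88377, with 8 of 9 markers fallen with dilatation and 1 without. All 9 macrophage markers rose with dilatation and 5 without, on sums of 1815 to 3113, 12812 to 18323 and 4627 to 7065. Of 8 endothelial markers 4 rose with dilatation and 3 without. Tie1, in both of these counts, lay above background in the 5 MPS VII mice alone and so passed the filter through them. Of 8 fibroblast markers 4 fell in each comparison while Col1a1 rose with dilatation. Cardiomyocyte markers gave 0 calls among 5 tested, with Tnni3, Ryr2, Mybpc3 and Sln not well above background. Of the skeletal muscle markers 3 were tested, of which 1 rose with dilatation, where 2 lay below 0, and 0 were called without. Acta1, Ckm, Myh1 and Pvalb were among those not well above background. Erythroid markers numbered 3, of which Slc4a1 fell with dilatation.

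**Figure D4:**
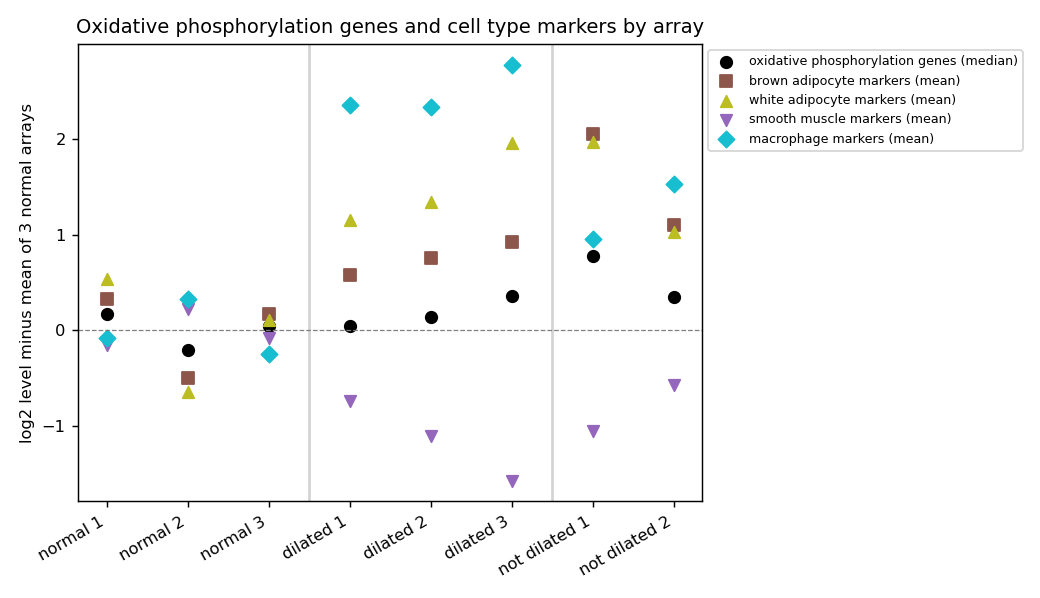
For each of the 8 mice, the median of 72 oxidative phosphorylation genes and the mean of 4 marker lists, as log2 level minus the mean of the 3 normal arrays (vertical axis). Not dilated mouse 1 is highest for the oxidative phosphorylation genes (0.77) and for brown adipocyte markers (2.05), and normal mouse 2 is lowest for both (-0.20 and -0.50).

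Within groups, the mouse with the higher oxidative phosphorylation median also had the higher brown and white adipocyte means: normal mouse 1 among normal mice, dilated mouse 3 among dilated mice and not dilated mouse 1 of its pair. The brown marker mean relative to normal was 0.33, -0.50 and 0.17 in the normal mice, 0.57, 0.75 and 0.93 in the dilated mice and 2.05 and 1.11 in the not dilated mice. Dilated mice 1 and 2 had brown marker means above all normal mice at oxidative phosphorylation medians within the normal range. The brown marker mean thus did not overlap between groups, and the white marker mean was at most 0.54 in normal and at least 1.03 in MPS VII mice. Each of these covariates runs with the group labels, so the fits given above cannot tell marker level from group. The part of these cell types in the differences was not tested.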

How the data were processed

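Total RNA of 8 ascending aortas was hybridised as biotinylated cRNA to Illumina arrays, per the labels' protocols. The deposited table holds linear intensities for 25697 probes. The submitters' processing notes name GenomeStudio and Partek without saying what each did, and how scanner output became this table is not given in the sources used here. About 28% of the deposited intensities lie below 0 and the sorted arrays differ by at most 0.94, so a background had been subtracted and the arrays share 1 distribution. A second deposited table was not used, since 16 of its columns match no single sample by name. Symbols came from the platform annotation (23141 probes with 1 symbol, 2556 with none).

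Noise (SD 11.0) was estimated from values below 0, and the background bound of 25.6 is its one-sided 0.01 limit. The 12913 probes above it on at least 2 arrays were kept, each gene was taken as its probe with the highest mean, and 10040 genes were tested. A mean per group was fitted to log2(intensity + 50) on all 8 arrays with limma 3.58.1 in R 4.3.3 (lmFit and eBayes, with 5 residual degrees of freedom and a prior worth 4.05). All 4 contrasts were two-sided and Benjamini-Hochberg adjusted over all genes, with a threshold of 0.05. The script was tested on simulated data. Members given mouse by mouse are those called in any contrast, the highest and lowest of each complex in both contrasts with normal, the isoform groups of complexes IV and V, and a catalytic core list. The members, lists and tests were chosen with earlier results of these data known. Alternatives varied the offset (16, 100), the filter, the normalization, the probe choice, array weights, the variance trend, the arrays in the fit, covariates (age, sex, white adipocyte markers), a replicate block and each left-out array. The brown adipocyte and cardiomyocyte covariates were added after seeing the data.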

Additional observations from a re-analysis of the deposited data

How the results depend on the processing

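Counts of called members and their medians kept direction under an offset of 100, the filter to all 8 arrays, cyclic loess, median centring, every probe kept and an intensity trend, with counts within 1.5 times of those reported. Members called with dilatation (2 as reported) numbered 0 with an offset of 16, 1 with no filter, 4 with array weights, 8 with age, 0 with sex, 0 with the white adipocyte and 1 with the brown adipocyte covariate. Without dilatation (14 as reported) they numbered 5 with the offset of 16, 23 with age, 24 with the cardiomyocyte covariate and 0 with either adipocyte covariate, and over both MPS VII groups (16 as reported) 27, 25 and 0 with age, cardiomyocyte and either adipocyte covariate. The brown adipocyte and cardiomyocyte covariates were chosen after seeing the data. Median differences under the white and brown adipocyte covariates were -0.36 and -0.17 with dilatation, -0.0098 and -0.18 without, and -0.19 and -0.18 over both, and dilated minus not dilated was 0.021 under the brown one. Under the white adipocyte covariate the sign turned for Sdhb with dilatation (-0.047) and, over both groups, for Atp5l (-0.035), Cox5a (-0.037), Cox5b (-0.047), Cox6b1 (-0.19), Cyc1 (-0.12), Ndufaf1 (-0.00050) and Ndufs4 (-0.085). Under the brown one it turned without dilatation for Cox5a (-0.095), Cox5b (-0.073) and Cyc1 (-0.15), and over both groups for Atp5l (-0.0082), Cox5a (-0.0098), Cox5b (-0.040), Cox6b1 (-0.091), Cyc1 (-0.036) and Ndufs4 (-0.024). The cause was not tested. With each array left out in turn, members called ranged from 0 to 2 with dilatation, 0 to 24 without, 4 to 23 over both and 0 to 0 between the MPS VII groups. The medians ranged from 0.069 to 0.25, 0.35 to 0.77, 0.24 to 0.46 and -0.61 to -0.17. With the replicate block, members called numbered 3 with dilatation, 16 without, 20 over both and 0 between the MPS VII groups, but the numbers share no stated animal or batch. Correlations of deviations from the group mean ran from -0.19 to 0.33 for same-numbered and from -0.33 to 0.16 for other pairs of arrays. In groups this small such deviations constrain each other, so the correlations cannot show whether the numbers pair the mice. The unnormalized signals were not run, and a fit of only the groups compared gives no separate value for both MPS VII groups together. Intensities near the bound of 25.6 limit what can be said of Cox7b, Ndufab1 and Ndufb11.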
